A study of Homo sapiens with 6 samples.

Results

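The genes examined were subunits of the voltage-gated calcium channels, chosen by name because these channels belong to neuroendocrine tumor cells and are the antigens of Lambert-Eaton myasthenic syndrome. The 10 genes were CACNA1A, CACNA1B, CACNA1C, CACNA1D, CACNA1E, CACNA1H, CACNB1, CACNB2, CACNB3 and CACNA2D1, and all 10 were found among the 28395 genes of the count table. RNA was sequenced from H146 cells (cell line labelled NCI-H146, genotype WT), an established small cell lung cancer (SCLC) line, 2 days after siRNA transfection. The control group received a negative control siRNA, and the other group received an siRNA against KIFC1, the kinesin that clusters extra centrosomes, named siKIFC1 #2 in the study. Each group held 3 libraries numbered as biological replicates, all libraries came from 1 cell line, and 1 siRNA sequence against KIFC1 was used, so an effect of KIFC1 loss and an effect of that siRNA alone cannot be told apart.

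A voltage-gated calcium channel is built around an alpha1 subunit, which forms the pore and senses the membrane voltage. The alpha1 genes are grouped by their currents into L-type (CACNA1C, CACNA1D, CACNA1F, CACNA1S), P/Q-type (CACNA1A), N-type (CACNA1B), R-type (CACNA1E) and T-type (CACNA1G, CACNA1H, CACNA1I). Beta subunits are cytoplasmic partners that bring the L-, P/Q-, N- and R-type pores to the membrane, and alpha2delta subunits sit on its outer face. In neurons and neuroendocrine cells, the P/Q- and N-type channels admit the calcium that triggers vesicle release. In Lambert-Eaton myasthenic syndrome, which often accompanies SCLC, antibodies against the P/Q-type channel impair release at the neuromuscular junction.

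The stretch that joins an alpha1 subunit to a beta subunit, the alpha interaction domain in the linker between the first and the second repeat, is shown because it divides the alpha1 genes into those that use the beta genes described here and those that do not. A search of the coding sequences of the GENCODE 44 canonical transcripts for its residue pattern found 1 match in 7 of 10 alpha1 genes, and none in the T-type genes CACNA1G, CACNA1H and CACNA1I. The stretch spans 16 codons, or 48 bases, and lies within 1 coding exon in each of the 5 matching genes printed here. On GRCh38 it lies in CACNA1A at chr19:13334382-13334429 on the minus strand (exon 8), in CACNA1B at chr9:137955762-137955809 on the plus strand (exon 8), in CACNA1E at chr1:181711018-181711065 on the plus strand (exon 8), in CACNA1C at chr12:2512876-2512923 on the plus strand (exon 9) and in CACNA1D at chr3:53702705-53702752 on the plus strand (exon 9). Capitals mark the 7 codons whose amino acid was the same in all 7 matching genes, read 5′ to 3′ on the coding strand. The search pattern itself required the amino acid at each of these codons except the last capital codon of each line, for isoleucine. The sameness of the others was therefore set by the search and is not a finding.
CACNA1A: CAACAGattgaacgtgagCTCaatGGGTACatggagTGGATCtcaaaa
CACNA1B: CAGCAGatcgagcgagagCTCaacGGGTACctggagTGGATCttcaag
CACNA1E: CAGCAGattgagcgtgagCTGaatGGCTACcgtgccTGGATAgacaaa
CACNA1C: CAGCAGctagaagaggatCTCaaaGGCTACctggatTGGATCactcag
CACNA1D: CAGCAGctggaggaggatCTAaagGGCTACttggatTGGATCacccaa
The P/Q-type and N-type genes shared 39 of 48 bases here, and the L-type genes CACNA1C and CACNA1D shared 41 of 48. Between CACNA1A and the L-type genes, 33 of 48 bases were shared with CACNA1C and 32 of 48 with CACNA1D. The R-type gene CACNA1E shared 35 of 48 bases with both CACNA1A and CACNA1B, and 29 of 48 with CACNA1C.

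Total counts per library ran from 15392374 to 17754458. Levels are given as CPM, the counts scaled to a common library size with edgeR's trimmed mean of M values. KIFC1 had 14, 4 and 14 counts in the control siRNA libraries and 1, 1 and 0 in the siKIFC1 #2 libraries. That is at least 3.26-fold lower when the group is set to a floor of 3 counts per library (edgeR adjusted p = 0.0739, and 0.00459 with the replicate number as a block). Every 32-base word tested of the KIFC1 transcript also occurs on an alternate sequence of GRCh38, and the part of such copies in its low counts was not tested. Markers of neuroendocrine SCLC were present. All 12 neuroendocrine markers listed were tested, and their levels differed widely, with INSM1 at 10009 to 12809 counts in all libraries. CHGA had 104 to 147 counts in the control siRNA libraries and 145 to 818 in the siKIFC1 #2 libraries (log2 fold change 2.00, SE 0.66, edgeR adjusted p = 0.436). In the control siRNA libraries its mean of 7.68 CPM lay below that of CD44, a marker of other cells, at 10.2 CPM. All 32-base words tested of CHGA occur on an alternate sequence of GRCh38. Of 11 markers of other cells, 7 had at most 23 counts in any library, among them YAP1 with 0 to 7, POU2F3 with 0 to 3 and VIM with 2 to 5. The other 4 were detected at low levels and were tested, CD44 with 153 to 202 counts, COL1A2 with 113 to 197, COL1A1 with 28 to 59 and PTPRC with 21 to 57, and none was called. SOX1, another antigen of the paraneoplastic syndromes of SCLC, had 133 to 161 counts. RNA was taken from whole cultures, so fewer cells of a type and less RNA per cell cannot be told apart.

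At baseline, in the control siRNA libraries, CACNA1A, CACNB3 and CACNA2D1 were the leading genes of the alpha1, beta and alpha2delta classes, to which the 10 genes belong. To set genes beside each other, CPM was divided by transcript length in kilobases. Per kilobase of the canonical mRNA, CACNA1A stood at 57.7 ± 10.4 CPM per kb (SD, n = 3 libraries), followed by CACNA2D1 at 37.4 ± 2.97, CACNB3 at 15.9 ± 0.274 and CACNA1B at 8.16 ± 1.10. A lower step held CACNB1 at 2.63 ± 0.170, CACNB2 at 1.31 ± 0.104, CACNA1D at 1.12 ± 0.0807 and CACNA1E at 0.986 ± 0.269. CACNA1H at 0.0317 ± 0.0162 and CACNA1C at 0.0182 ± 0.00796 CPM per kb were close to no signal. The ranges of neighbours in this order overlapped for CACNA1D and CACNA1E, and for CACNA1H and CACNA1C, and for no other neighbours.

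The order depended on the length used. Per kilobase of the union of all annotated exons, CACNA2D1 led at 30.8 ± 2.45 CPM per kb and CACNA1A came next at 11.6 ± 2.09 (SD, n = 3), because the union for CACNA1A is 43150 bases against 8647 bases for its canonical mRNA. By that length CACNA1B stood at 8.08 ± 1.09, CACNB3 at 6.52 ± 0.112, CACNB1 at 1.38 ± 0.0891, CACNA1E at 0.735 ± 0.201, CACNB2 at 0.718 ± 0.0567 and CACNA1D at 0.544 ± 0.0394 CPM per kb. CACNA1H at 0.0302 ± 0.0155 and CACNA1C at 0.00980 ± 0.00428 were again the lowest. Under either length CACNA1A was the leading alpha1 gene, CACNB3 the leading beta gene and CACNA2D1 the leading alpha2delta gene. Among 14325 tested genes with a canonical length, 92.0% had a lower level per kb than CACNA1A, 86.3% than CACNA2D1, 68.15% than CACNB3 and 50.6% than CACNA1B, but only 15.5% than CACNA1D and 14.3% than CACNA1E.

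**Figure D1:**
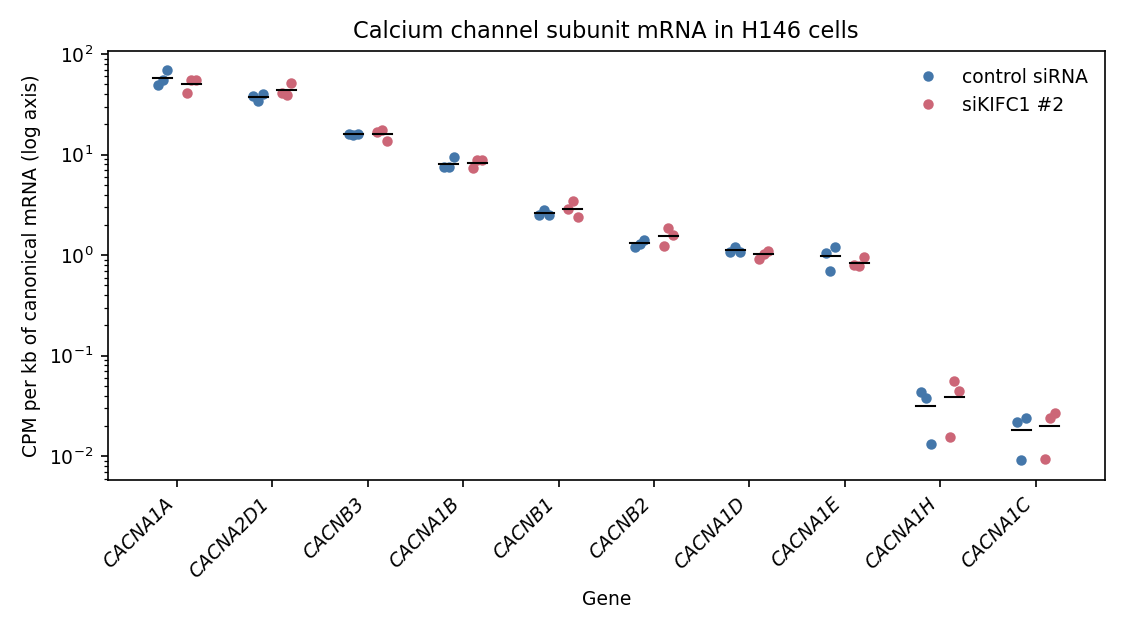
Level of each calcium channel gene per library, in CPM per kb of canonical mRNA on a log axis, with 3 points per group (control siRNA blue, siKIFC1 #2 red) and a bar at each group's mean. CACNA1A, CACNA2D1, CACNB3 and CACNA1B lie above the other genes, CACNA1H and CACNA1C lie near 0.03 and 0.02 CPM per kb, and the groups overlap for every gene.

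By canonical length, each of these classes was dominated by 1 gene in every library. CACNA1A made up 82.6%, 84.2% and 84.8% of the summed alpha1 level in the control siRNA libraries and 80.8%, 82.8% and 82.7% in the siKIFC1 #2 libraries. CACNA1B made up 12.7%, 11.6% and 11.6%, then 14.3%, 13.1% and 13.0%. The groups did not overlap for CACNA1B, whose share was higher in each siKIFC1 #2 library than in any control siRNA library. For CACNA1A, control siRNA replicate 1 lay below siKIFC1 #2 replicates 2 and 3. The small shares of CACNA1F (0.0926%, then 0.214%) and CACNA1S (0.156%, then 0.302%) also separated the groups, higher in siKIFC1 #2. These shares move against each other within a library and were not tested. How many of all genes tested had groups that did not overlap was not counted, so no separation here or below is set against a background. By union length CACNA1A made up 53.4% ± 1.95 and CACNA1B 37.5% ± 1.22 of the alpha1 level in the control siRNA libraries (SD, n = 3). In the siKIFC1 #2 libraries these shares were 50.1% ± 1.85 and 40.6% ± 1.21, and they were closest in replicate 1, at 47.9% and 42.0%. By union length the groups did not overlap for CACNA1A either. Its lowest control siRNA share was 51.21% and its highest siKIFC1 #2 share 51.15%. The size of the lead and the overlap for CACNA1A, but not the leading gene, thus depended on the length.

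Among the beta genes, CACNB3 made up 74.1% ± 0.491 of the summed level by canonical length in the control siRNA libraries and 72.7% ± 2.64 in the siKIFC1 #2 libraries (SD, n = 3 each). CACNB1 made up 12.3% ± 0.946 and 13.1% ± 0.872, and CACNB2 6.11% ± 0.409 and 7.06% ± 1.38. CACNB4, the remaining beta gene, made up 7.499% ± 0.6445 and 7.19% ± 1.98. Among the alpha2delta genes, CACNA2D1 made up 87.2% ± 1.43 and 89.2% ± 1.86. No beta or alpha2delta share separated the groups.

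**Figure D2:**
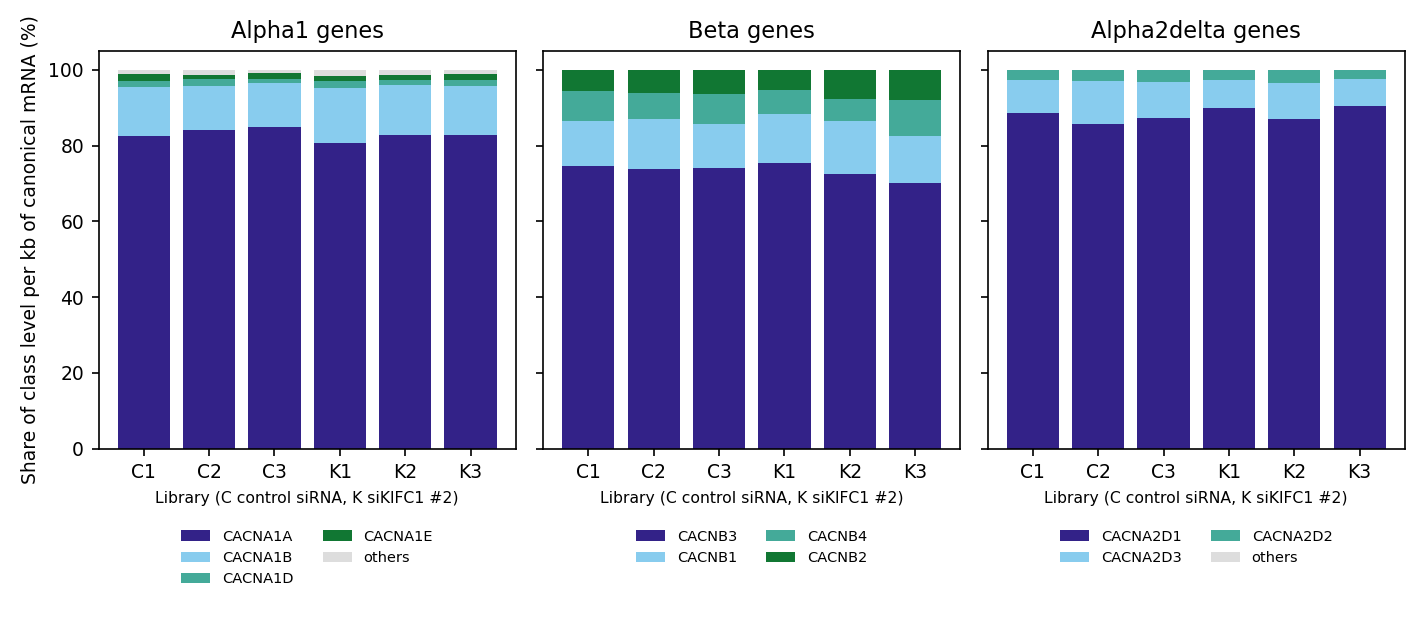
Share of each gene in the summed level of its subunit class, in percent of CPM per kb of canonical mRNA, for the 3 control siRNA libraries (C1 to C3) and the 3 siKIFC1 #2 libraries (K1 to K3). CACNA1A takes 80.8% to 84.8% of the alpha1 level, CACNB3 70.2% to 75.4% of the beta level and CACNA2D1 85.7% to 90.4% of the alpha2delta level.

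The comparison of siKIFC1 #2 with control siRNA asked whether KIFC1 knockdown was accompanied by a change in these subunits. None of the 10 calcium channel genes was called higher or lower. CACNA1C and CACNA1H had too few counts to be tested, and 0 of the other 8 had an adjusted p under 0.05 (edgeR's quasi-likelihood test, Benjamini-Hochberg adjustment over all 14777 genes tested). Over all genes tested, 0.697% were called. At an unadjusted p under 0.05 the count was also 0 of 8, against 9.26% of all genes tested. The replicate numbers were taken to pair the libraries, from correlations in these same counts and not from the labels. With the number as a block, 0 of 8 had an adjusted p under 0.05, against 5.83% of all genes tested. At an unadjusted p under 0.05 that fit held 2 of 8, CACNA2D1 higher and CACNA1A lower, against 17.7% of all genes tested. DESeq2's Wald test and limma-voom each called 0 of 8. The 8 log2 fold changes ran from -0.23 to 0.25, with a median of 0.02 beside a median of 0.01 for all genes tested. A missed threshold does not show equal levels, so the 95% interval of each difference is given with it.

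The P/Q-type gene CACNA1A had 424, 474 and 599 CPM in the control siRNA libraries and 355, 479 and 481 CPM in the siKIFC1 #2 libraries. Replicate 1 was the lowest library of each group, control siRNA replicate 3 stood highest, and the groups overlapped. The log2 fold change was -0.19 (SE 0.15, 95% interval -0.51 to 0.14, edgeR adjusted p = 0.807). Between libraries of the same number it was -0.25, 0.02 and -0.32, lower in 2 of 3 pairs. Without control siRNA replicate 3 the log2 fold change was -0.033.

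The N-type gene CACNA1B had 73.8, 73.6 and 92.4 CPM in the control siRNA libraries and 71.4, 86.0 and 85.9 CPM in the siKIFC1 #2 libraries. The highest value was control siRNA replicate 3 and the lowest siKIFC1 #2 replicate 1, and the groups overlapped. Its log2 fold change was 0.02 (SE 0.13, 95% interval -0.26 to 0.30, edgeR adjusted p = 0.988).

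The R-type gene CACNA1E had 17.3, 11.3 and 19.96 CPM in the control siRNA libraries and 13.0, 12.8 and 15.7 CPM in the siKIFC1 #2 libraries. The control siRNA libraries spread more widely and enclosed all 3 siKIFC1 #2 libraries. Its log2 fold change was -0.23 (SE 0.20, 95% interval -0.65 to 0.20, edgeR adjusted p = 0.820). It was -0.43 without control siRNA replicate 2 and -0.046 without control siRNA replicate 3.

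The L-type gene CACNA1D, which opens at less depolarized voltages than other L-type channels, had 10.01, 11.3 and 10.01 CPM in the control siRNA libraries and 8.68, 9.74 and 10.3 CPM in the siKIFC1 #2 libraries. The groups overlapped through siKIFC1 #2 replicate 3. Its log2 fold change was -0.12 (SE 0.15, 95% interval -0.46 to 0.21, edgeR adjusted p = 0.897). With 1 library left out it ran from -0.18 (without siKIFC1 #2 replicate 3) to -0.057 (without siKIFC1 #2 replicate 1). An exon of CHDH, a mitochondrial choline dehydrogenase gene on the opposite strand, overlaps CACNA1D by 1399 bases. CHDH had 253, 222 and 299 counts in the control siRNA libraries and 174, 157 and 215 in the siKIFC1 #2 libraries, and the setting for strand in the counting is not given in the sources used here, so reads of the overlap cannot be assigned to either gene.

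The other L-type gene, CACNA1C, the main pore of heart and smooth muscle, had 5, 2 and 6 counts in the control siRNA libraries and 2, 5 and 6 in the siKIFC1 #2 libraries. The T-type gene CACNA1H had 6, 5 and 2 counts in the former and 2, 7 and 6 in the latter. Against 5568 to 11003 counts for CACNA1A, both were barely detected at this depth, and a difference between the groups could not be resolved. The T-type genes also resemble each other in places, and 96 of the 7147 words of 32 bases tested in the CACNA1H transcript occur in CACNA1G or CACNA1I.

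The leading beta gene, CACNB3, had 46.7, 45.8 and 47.4 CPM in the control siRNA libraries and 49.6, 52.1 and 40.4 CPM in the siKIFC1 #2 libraries. The control siRNA libraries lay close together, inside the range of the siKIFC1 #2 libraries. Its log2 fold change was 0.02 (SE 0.12, 95% interval -0.24 to 0.29, edgeR adjusted p = 0.985), which made it, with CACNA1B, the closest of the 8 to no difference. CACNB1, the beta subunit of skeletal muscle that is also made in neurons, had 9.41, 10.5 and 9.41 CPM, then 10.7, 12.8 and 8.99 CPM. Its lowest value was siKIFC1 #2 replicate 3, and the groups overlapped (log2 fold change 0.14, SE 0.17, 95% interval -0.22 to 0.51, edgeR adjusted p = 0.888). The log2 fold change of CACNB1 was 0.0016 without siKIFC1 #2 replicate 2 and 0.26 without siKIFC1 #2 replicate 3.

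CACNB2, the beta subunit best known from heart, had 7.44, 8.01 and 8.70 CPM in the control siRNA libraries and 7.53, 11.5 and 9.67 CPM in the siKIFC1 #2 libraries. It was higher in the siKIFC1 #2 library of all 3 pairs, by 0.02, 0.52 and 0.15 on the log2 scale, but the groups overlapped through siKIFC1 #2 replicate 1. Its log2 fold change was 0.25 (SE 0.19, 95% interval -0.16 to 0.65, edgeR adjusted p = 0.786). It was 0.089 without siKIFC1 #2 replicate 2 and 0.39 without siKIFC1 #2 replicate 1.

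CACNA2D1, an alpha2delta subunit that binds gabapentin, had 288.0, 257.6 and 301.3 CPM in the control siRNA libraries and 312.1, 295.5 and 389.3 CPM in the siKIFC1 #2 libraries. It was higher in the siKIFC1 #2 library of all 3 pairs, by 0.12, 0.20 and 0.37 on the log2 scale, and the groups overlapped only because siKIFC1 #2 replicate 2 lay below control siRNA replicate 3. The log2 fold change was 0.24 (SE 0.12, 95% interval -0.03 to 0.50, edgeR adjusted p = 0.617). With the replicate block the adjusted p was 0.0831, the lowest of any of the 8 genes under any alternative run. Without siKIFC1 #2 replicate 3 the log2 fold change was 0.11.

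**Figure D3:**
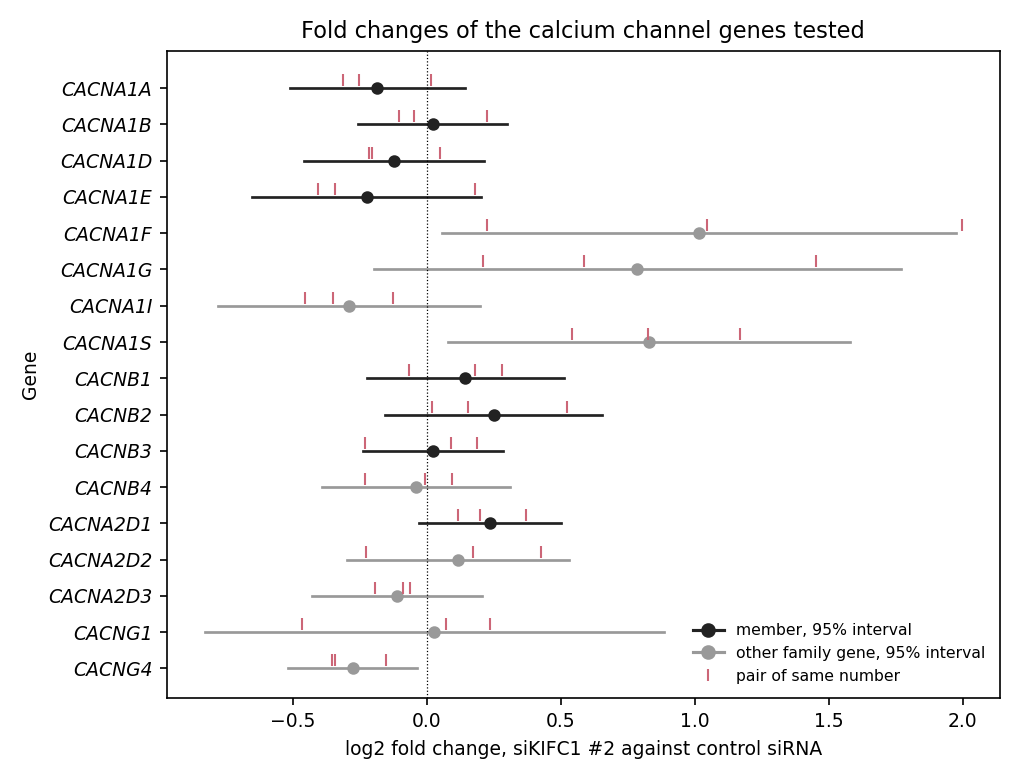
Log2 fold change of siKIFC1 #2 against control siRNA for the 17 calcium channel genes tested, with points for the edgeR estimate, lines for its 95% interval (black, the 8 genes examined; grey, other genes of the family) and red ticks for the ratio in each pair of the same replicate number. The intervals of all 8 examined genes cross 0, and those of CACNA1F, CACNA1S and CACNG4 do not.

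The family has 16 further genes, of which 9 were tested, and none was called. In all, 0 of 17 family genes were called, against 0.697% of all genes tested. At an unadjusted p under 0.05, CACNA1F and CACNA1S were higher and CACNG4 was lower, 3 of 17 against 9.26% of all genes tested. The median log2 fold change of the 17 was 0.02. CACNG4, a gamma subunit that also modulates AMPA receptors, was the highest of the other family genes, at 39.3 ± 1.76 CPM per kb in the control siRNA libraries (SD, n = 3; both lengths are the same). That is above CACNA2D1 by either length, and below CACNA1A by canonical length only. It had 143.9, 145.1 and 133.6 CPM in the control siRNA libraries and 129.6, 114.5 and 104.6 CPM in the siKIFC1 #2 libraries. Every siKIFC1 #2 library lay below every control siRNA library. Its log2 fold change was -0.28 (SE 0.11, 95% interval -0.52 to -0.04), with an edgeR adjusted p of 0.437, and of 0.0435 with the replicate block, where it was the 1 family gene called. The fit with the block called 5.83% of all genes tested.

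CACNA1F and CACNA1S, the L-type pores of retina and skeletal muscle, were near the limit of detection. CACNA1F had 4, 9 and 6 counts in the control siRNA libraries and 15, 10 and 11 in the siKIFC1 #2 libraries (log2 fold change 1.02, SE 0.44, edgeR adjusted p = 0.498). CACNA1S had 9, 13 and 10 counts, then 15, 18 and 20 (log2 fold change 0.83, SE 0.34, edgeR adjusted p = 0.470). In both genes the groups did not overlap, and neither was called with the block. The T-type genes CACNA1G, with 6 to 18 counts, and CACNA1I, with 48 to 86 counts, had log2 fold changes of 0.78 (SE 0.45) and -0.29 (SE 0.22), both with adjusted p over the threshold.

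CACNB4 (log2 fold change -0.04, SE 0.16), CACNA2D2 (0.12, SE 0.19), CACNA2D3 (-0.11, SE 0.15) and the skeletal muscle gamma subunit CACNG1 (0.03, SE 0.39) all had overlapping groups. CACNA2D4 and the gamma genes CACNG2, CACNG3, CACNG5, CACNG6, CACNG7 and CACNG8 had at most 13 counts in any library and were removed by the low-count filter. Of these, CACNG2, a gamma subunit that acts on AMPA receptors, had 2, 0 and 4 counts in the control siRNA libraries and 7, 13 and 5 in the siKIFC1 #2 libraries. Its groups did not overlap, and in the edgeR fit without the filter its adjusted p was 0.193. That fit tested all 26 family genes and called 0, against 265 of all 23245 genes tested. The study lists CACNG2 among the genes upregulated after KIFC1 knockdown. Its cutoffs were a p under 0.05, not described as adjusted, and a fold change. Calls here rest on adjusted p, so the criteria differ.

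Genes that act on or beside these channels were counted in lists written from general knowledge. Over all genes tested, 0.697% were called without the replicate block and 5.83% with it. Of the channel regulators (calmodulins, calcineurin, CaM kinase II, small GTPases, G protein beta subunits), 0 of 20 tested were called and the median log2 fold change was -0.07. With the replicate block 1 of 20 was called, lower, against 5.83% of all genes tested. PPP3CA (log2 fold change 0.27, SE 0.11), GNB5 (-0.24, SE 0.12) and DPYSL2 (-0.18, SE 0.09) were among the genes of lowest p and were not called in either fit.

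Of the vesicle release machinery that P/Q- and N-type channels serve, 0 of 25 genes tested were called, with a median log2 fold change of -0.10. With the replicate block 6 of 25 were called, 2 higher and 4 lower, against 5.83% of all genes tested. SYT1, the calcium sensor of fast release, had 198, 176 and 196 CPM in the control siRNA libraries and 244, 250 and 316 CPM in the siKIFC1 #2 libraries. All siKIFC1 #2 libraries were higher (log2 fold change 0.51, SE 0.12, edgeR adjusted p = 0.0919, and 0.000179 with the block).

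UNC13A, a vesicle priming factor, was at 246 ± 27.8 CPM in the control siRNA and 191 ± 24.7 CPM in the siKIFC1 #2 libraries (SD, n = 3 each; log2 fold change -0.36, SE 0.12, edgeR adjusted p = 0.316, and 0.00350 with the block). RAB3A, a vesicle GTPase, was at 47.8 ± 2.34 and 37.8 ± 3.90 CPM (log2 fold change -0.34, SE 0.12, edgeR adjusted p = 0.325, and 0.0316 with the block). For both genes no siKIFC1 #2 library lay inside the control siRNA range. The other two genes lower in the block, named after their values were seen, were NAPA (log2 fold change -0.34, edgeR adjusted p = 0.470, and 0.0164 with the block) and NSF. NSF had 10 to 196 counts in the control siRNA libraries and 8 to 48 in the siKIFC1 #2 libraries, high in replicate 2 of both groups, and all of its 32-base words tested occur on an alternate sequence of GRCh38, so its value is uncertain.

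Of the sodium and potassium channels that set the voltage to which calcium channels respond, 0 of 26 tested were called, with a median log2 fold change of -0.16. With the block 4 of 26 were called, 2 higher and 2 lower, against 5.83% of all genes tested. SCN9A, a sodium channel pore, was at 101 ± 12.6 CPM in the control siRNA and 72.0 ± 8.43 CPM in the siKIFC1 #2 libraries (SD, n = 3 each; log2 fold change -0.48, SE 0.13, edgeR adjusted p = 0.147, and 0.000541 with the block). KCND3, a transient potassium channel pore, was at 7.75 ± 1.61 and 4.95 ± 2.23 CPM (log2 fold change -0.65, SE 0.28, edgeR adjusted p = 0.504, and 0.0178 with the block).

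The delayed potassium channel pores KCNA1 and KCNA2 were higher in the siKIFC1 #2 library of each pair. KCNA1 was at 223 ± 27.9 CPM in the control siRNA and 295 ± 80.3 CPM in the siKIFC1 #2 libraries (log2 fold change 0.40, SE 0.17, edgeR adjusted p = 0.470, and 0.00422 with the block). KCNA2 was at 50.3 ± 7.71 and 76.7 ± 27.1 CPM (log2 fold change 0.61, SE 0.21, edgeR adjusted p = 0.316, and 0.000427 with the block). In both genes siKIFC1 #2 replicate 3 was highest, and siKIFC1 #2 replicate 1 lay below control siRNA replicate 3, so the groups overlapped.

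Of the genes that store, pump and buffer calcium, 0 of 24 tested were called in either fit, with a median log2 fold change of -0.04. Of all genes tested, 0.697% were called without the replicate block and 5.83% with it. The lowest p values belonged to ITPR3, an IP3 receptor (log2 fold change -0.24, SE 0.11), SLC8A1, a sodium-calcium exchanger (-0.24, SE 0.13), ATP2A2, the reticulum calcium pump (-0.18, SE 0.10), and MICU2, a mitochondrial uptake regulator (0.17, SE 0.12). Of the immediate early genes that calcium entry induces in neurons, 0 of 14 tested were called in either fit, against the same 0.697% and 5.83%. Their median log2 fold change was 0.13. BDNF (log2 fold change -0.67, SE 0.26), NR4A2 (-0.31, SE 0.15), JUNB (0.25, SE 0.14) and ATF3 (0.35, SE 0.20) had the lowest p values.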

How the data were processed

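The 6 libraries hold total RNA of H146 cells. According to the study's methods and the submitters' processing notes, the authors used HISAT2 2.2.1 (GRCh38) and featureCounts 2.0.8, and they deposited whole counts per NCBI gene ID, without normalization. The notes also name DESeq2 1.46.0 and R 4.4.2. The annotation and the strand setting are not given in the sources used here. A symbol was found for 27745 of 28395 IDs, and 0.0618% of counts fell on the rest. Mitochondrial genes took 8.34% to 13.1% of each library's counts. The replicates are labelled as biological and the study's methods name individual wells, but not whether wells came from separate days or passages, so p-values measure the spread between these libraries.

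Groups and replicate numbers came from the sample titles. The main test was edgeR 4.0.16 (R 4.3.3) on 14777 genes kept by filterByExpr, KIFC1 retained, with TMM scaling, a robust quasi-likelihood fit and a threshold of 0.05 on Benjamini-Hochberg adjusted p. An SE is the size of the log2 fold change over the root of F. Deviations from the group means correlated at 0.474, 0.381 and 0.455 between same-numbered libraries over 12169 genes, and at -0.417 to -0.0255 between others, so the numbers were taken to pair the libraries. Such deviations cancel within each group, so the negative values follow in part from the positive ones. The block on that number was an alternative, since the study's methods name none. The biological coefficient of variation was 13.1%. Floors of 3 counts cover counting error only. Tested on simulated data for this comparison, the fit called 182 of 197 genes of log2 fold change 1 correctly (92.4%) among 14636, and 4 others. Every simulated gene had the same biological variation and no effect of replicate number, unlike these libraries, so that rate may not hold for them. Smaller changes were not tried.

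Lengths and coordinates came from GENCODE 44 (union of exons, or the canonical transcript as an alternative). Words of 32 bases from canonical transcripts were looked up on the 261 alternate sequences of GRCh38. The other alternatives were size factors from DESeq2 1.42.0 or library size as the scaling, DESeq2's Wald test, limma-voom (limma 3.58.1), no filter, a minimum of 10 counts in every library, and leaving out each library. Python 3.11.15 (pandas 2.3.3, numpy 2.4.6, matplotlib 3.10.9) made the tables and figures.

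The genes and lists were chosen with earlier results of these data known. Genes named are the 10 examined, every other family gene with a count, KIFC1, counted genes overlapping one of the 10, and in each other list up to 4 genes, first those with an adjusted p under 0.05 with or without the block and then those of smallest p. Antisense genes of CACNA1C had at most 1 count in any library. Some genes that this rule names are not reported here.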

Additional observations from a re-analysis of the deposited data

How the results depend on the processing

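None of the 10 calcium channel genes was called under any alternative run, and of 217 recomputed log2 fold changes of family genes 201 kept their direction and their side of the threshold. CACNG4 passed it with the replicate block (-0.28). The direction turned for CACNG1 under limma-voom (-0.044) and with the replicate block (-0.00065). With 1 library left out, these values ran from -0.037 to 0.14 for CACNA1B, -0.057 to 0.12 for CACNB3, -0.18 to 0.026 for CACNB4, -0.011 to 0.27 for CACNA2D2 and -0.18 to 0.35 for CACNG1. Genes called over all genes numbered 103 (48 higher, 55 lower), and 265 without a filter (121 higher, 144 lower), 270 with DESeq2 (125 higher, 145 lower) and 861 with the replicate block (407 higher, 454 lower), and ran from 24 (without control siRNA replicate 3) to 468 (without siKIFC1 #2 replicate 3) with 1 library left out, at most 64 without any other library. Called release genes numbered 1 without a filter, 2 with DESeq2, 6 with the block and 0 to 4 with 1 library left out, the 4 without siKIFC1 #2 replicate 3. Called sodium and potassium channel genes numbered 1 without a filter, 1 with DESeq2, 4 with the block and 0 to 2 with 1 library left out, the 2 without siKIFC1 #2 replicate 3. The block called 1 regulator and 1 family gene, and left the calcium handling and immediate early counts at 0. By canonical length, levels in the control siRNA libraries (CPM per kb) were CACNA1A 57.7, CACNA2D1 37.4, CACNB3 15.9, CACNB1 2.63, CACNB2 1.31, CACNA1D 1.12, CACNA1E 0.986 and CACNA1C 0.0182. The cause of these shifts was not tested, other than the length itself.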

Other observations

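CACNA2D1 and CACNA1A, the leading genes of their classes, were set against each other after their values were seen. CACNA2D1 stood at 0.680, 0.543 and 0.503 times the CPM of CACNA1A in the control siRNA libraries and at 0.879, 0.616 and 0.809 times in the siKIFC1 #2 libraries. The ratio was higher in the siKIFC1 #2 library of each of the 3 pairs, and the groups overlapped between control siRNA replicate 1 and siKIFC1 #2 replicate 2. It was not tested.

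Among the 12 neuroendocrine markers, edgeR called none without the replicate block when all 6 libraries were used, and 1 in each direction with it. Of all genes tested, 0.697% were called without the block and 5.83% with it. DESeq2's Wald test called 1 lower, leaving out siKIFC1 #2 replicate 1 gave 1 higher, and leaving out siKIFC1 #2 replicate 3 gave 1 in each direction. Over all genes, these runs called 270 of 14777, 39 of 15009 and 468 of 14958 tested. NCAM1 was the one called lower with the block (log2 fold change -0.42, SE 0.11, edgeR adjusted p = 0.137, and 0.000646 with the block).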
